A study of Sus scrofa with 36 samples.

Results

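The adrenal glands of the Large White x Creole cross (F1) were compared between pigs slaughtered after heat stress (HS) and pigs slaughtered at thermoneutrality (TN). The cross was chosen by the breed and the temperature given for each array, which left 12 of the 36 arrays of the series, 6 HS and 6 TN, with 1 array per pig. All 12 pigs were growing castrated males, and all carried the same cross of a lean commercial breed, Large White, with the Creole pig of the Caribbean. The thermoneutral temperature was 24 °C. Heat stress lasted 5 days at 32 °C by the growth protocol, whereas 30 °C is the temperature given with each HS array. By the study's methods HS pigs were killed after 4 or 5 of these days. Slaughter of the TN group preceded the rise in temperature, so that temperature and day of slaughter cannot be told apart. The RNA came from powder of whole glands, so in these bulk samples fewer cells of a type and less RNA per cell cannot be told apart. By the study's methods the pigs of a breed came from blocks of littermates and shared pens, and each pen was slaughtered at a single temperature. Pen and temperature therefore cannot be told apart either. Litter, pen and parents are not given with the arrays, and p-values measure the spread between these 12 pigs. They treat the pigs as independent, although some shared a litter or a pen.

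Each pig's RNA was labelled with a single dye and hybridised to a porcine array of 60-base probes, and the deposited table holds log2 intensities of 45348 probes after quantile normalization. On each array 44139 to 47726 probes exceeded the scanner's background limit (well above background), and neither this number (exact permutation test, two-sided p = 0.768) nor the median raw intensity (exact permutation test, two-sided p = 0.487) separated HS from TN arrays. Of the HS arrays 4 lay on slides 1 to 3, against 2 of the TN arrays. The correlation between any pair of these arrays was at least 0.985. The markers of the gland were bright, with means in TN pigs of 18.31 for CYP11A1 (the first enzyme of steroid synthesis), 18.04 for CYP17A1 and 18.74 for CHGA (chromogranin A of the medulla). HS replicate 3 stood apart, with skeletal muscle transcripts far above those of the other 11 arrays. In that array MYH7, the slow myosin heavy chain, was at 12.59 against 6.98 to 7.94 elsewhere, TNNT1 was at 11.64 against 6.02 to 6.68, and MYLPF was at 11.42 against 8.06 to 8.62. Results on the list of muscle markers, and on other genes named below as muscle proteins, are given with and without it.

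The adrenal cortex makes glucocorticoids under the control of ACTH from the pituitary, and the medulla makes catecholamines. Cells exposed to heat are known for switching on heat shock proteins, chaperones that hold and refold other proteins, through the factor HSF1, and for returning them to low levels as the stress lasts. HSP70 family members work with J-domain co-chaperones, which deliver the client, and with HSP110 and BAG proteins, which exchange the nucleotide.

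The question was how large the response to heat was in the cross alone, in which direction the genes differed, and whether the probes of a gene gave the same difference. The differences were small. The median size of the log2 difference, HS minus TN, over the 45348 probes was 0.09, against a median standard error of 0.10. A size above 0.5 was found for 930 probes (457 higher and 473 lower in HS pigs), and a size above 1 for 124 probes (66 higher and 58 lower). No probe passed an FDR of 0.05 (limma, Benjamini-Hochberg adjustment, 0% of probes called), and the lowest adjusted p was 0.176. At an FDR of 0.2 there were 6 probes. Without the arrays of slide 4 or of slide 5, 1 and 5 probes passed an FDR of 0.05, and without TN replicate 5, 1 probe did. With the spread estimated from all 36 arrays of the series the same contrast again gave 0 probes at an FDR of 0.05, with a lowest adjusted p of 0.0552, but 160 at an FDR of 0.1. An unadjusted p under 0.05 was reached by 5286 probes, or 11.7% of all, of which 2654 (5.85%) were higher and 2632 (5.8%) lower in HS pigs. If no probe differed, 2267.4 would be expected. Without slide 4, which held 2 TN arrays and 1 HS array, the number was 2572. The even split of the 5286 probes depended on the scaling: with each array scaled to the 75th percentile of its processed signal, 61.4% of the probes at an unadjusted p under 0.05 were higher in HS pigs, against 50.2% here. The lowest and the highest of the pigs' values did not overlap between the groups for 367 probes (0.809% of all), with all HS pigs above all TN pigs for 151 (0.333%) and below for 216 (0.476%). As no gene passed the FDR, the genes below are described by their values, and "higher" and "lower" state the sign of the difference between group means.

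**Figure D1:**
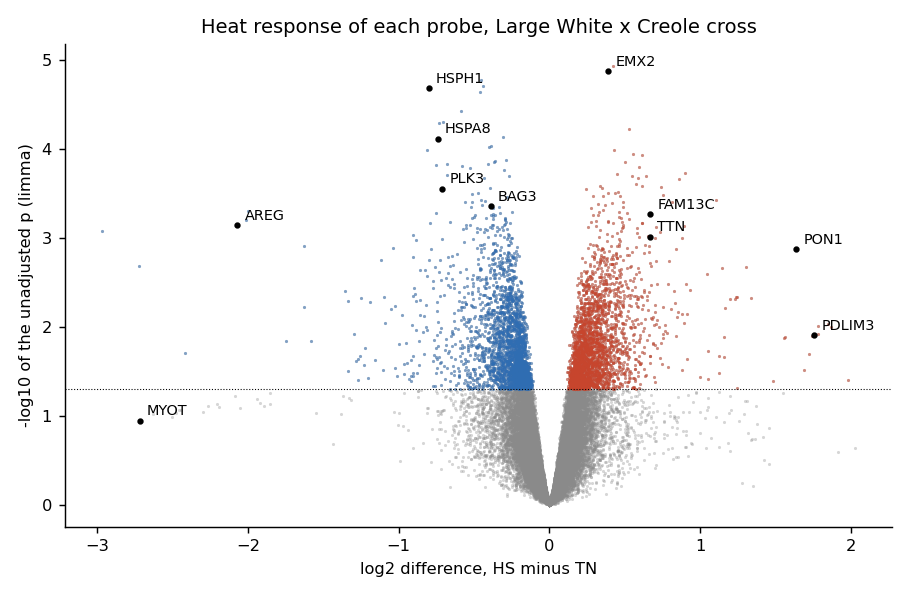
Log2 difference, HS minus TN (x axis), and -log10 of limma's unadjusted p (y axis) for each of the 45348 probes in the 12 pigs of the cross. Red and blue points are probes at an unadjusted p under 0.05 that are higher or lower in HS pigs, the dotted line is that threshold, and black points are the genes labelled by name; most probes lie within 0.5 of 0.

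Names could be given to 21481 probes of 10060 genes, and 5060 genes had at least 2 probes. These repeated probes allowed a check of each gene within the same pigs. All probes of a gene had the same sign for 3076 of the 5060 genes, and among the 2606 genes with exactly 2 probes both had the same sign for 1863. Of all 30923 pairs of probes of a gene, 73% had the same sign. The share was larger where p was low: it was 70.4% where neither probe was at an unadjusted p under 0.05, 81.6% where one was, and 98.7% where both were (1404 of 1423 pairs). Pairs that share a run of 15 bases read nearly the same piece of RNA, and were left out in a further count. Among the 26861 pairs without such a run, 71.2% had the same sign, and 1157 of the 1176 pairs with both probes at an unadjusted p under 0.05 did. Among the 25104 of these pairs in which both probes were well above background on all 12 arrays, 71.3% had the same sign and the log2 differences of the 2 probes had a Pearson correlation of 0.66, given as a description since the pairs come from the same 12 arrays and a gene with many probes gives many pairs. All these pairs share the pigs, so that agreement between probes concerns the RNA measured and not the number of pigs.

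**Figure D2:**
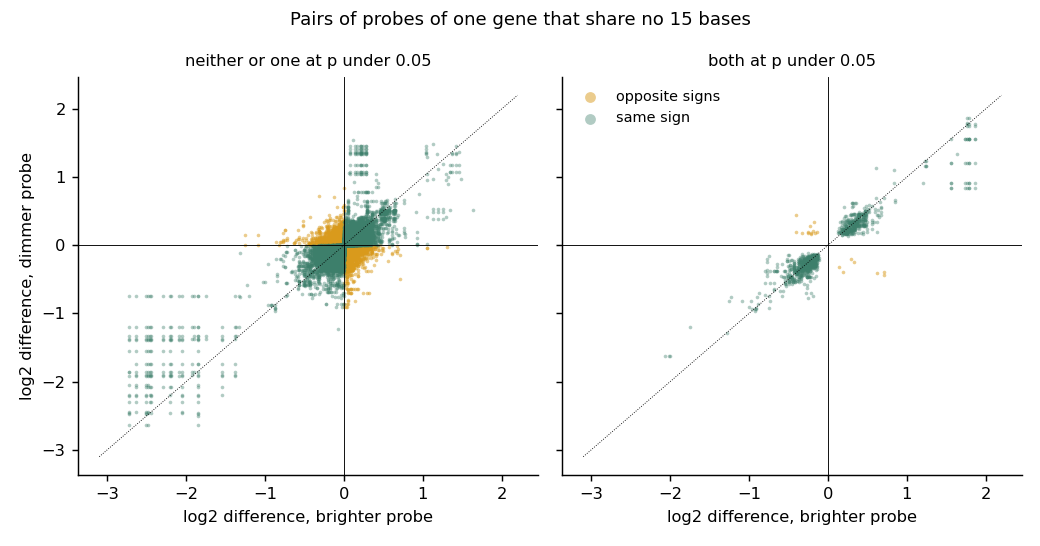
Log2 difference, HS minus TN, of the brighter probe (x axis) and the dimmer probe (y axis) of each of the 26861 pairs of probes of a gene that share no 15 bases, with neither or one probe (left) or both probes (right) at an unadjusted p under 0.05. Green points have the same sign and orange points opposite signs; on the right 1157 of 1176 pairs are green and lie near the dotted line of equality, and the columns of points at the lower left of the left panel are the probes of MYOT.

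Where probes of a gene opposed each other, their sequences were compared. Sequences are those of the deposited scanner files, written 5′ to 3′. Among the genes whose probes disagreed most was CYR61 (now CCN1, on chromosome 4 of Sscrofa11.1 from 130392404 to 130395179), a secreted matrix protein of the immediate-early response. Its probes 2 and 5, numbered from the brightest, are printed because they read the same 54 bases on opposite strands, with the shared run in capitals.
CYR61 probe 5: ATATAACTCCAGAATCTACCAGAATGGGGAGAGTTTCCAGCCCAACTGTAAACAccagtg
CYR61 probe 2: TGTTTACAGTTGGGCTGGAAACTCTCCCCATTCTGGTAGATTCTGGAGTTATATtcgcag
Probe 5 differed by -0.40 between HS and TN (unadjusted p = 0.0179, adjusted p = 0.336) and probe 2 by 0.72 (unadjusted p = 0.00328, adjusted p = 0.28). The other 3 probes of CYR61 differed by -0.31, -0.50 and -0.43. STAR, which brings cholesterol into mitochondria for steroid synthesis, has a pair of the same kind that shares 40 bases.
STAR probe 9: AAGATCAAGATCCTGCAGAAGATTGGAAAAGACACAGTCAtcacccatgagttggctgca
STAR probe 10: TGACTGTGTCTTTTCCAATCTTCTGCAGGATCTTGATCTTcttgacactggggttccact
They rank last by brightness among STAR's 10 probes, but probe 9 was bright, with a mean of 15.41, and probe 10 dim, with 9.1. They differed by -0.17 and -0.12 between HS and TN (unadjusted p = 0.179 and 0.198). Over all genes, 66 pairs in 55 genes shared 15 bases on opposite strands. Of these pairs 56.1% had the same sign, and 56.9% of the other 65 without the CYR61 pair, which led to this count, against 71.2% of the 26796 pairs that share such a run on neither strand. This class of pairs was chosen after the values were seen. The counts of genes whose probes share a sign include the probes of these pairs.

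Requiring at least 2 probes at an unadjusted p under 0.05 and all probes of one sign left 383 genes, 134 higher and 249 lower in HS pigs. Their median size was 0.26 on the log2 scale, 7 differed by more than 1, and 17 were higher and 26 lower by more than 0.5. Lower genes outnumbered higher ones under every alternative run, also after scaling to the 75th percentile (121 higher and 235 lower). Leaving out slide 4, with 2 TN arrays and 1 HS array, gave 45 higher and 94 lower genes, and leaving out TN replicate 3, which lay on that slide, gave 87 and 160. Counting the brightest probe of each of the 10060 genes, 82 genes (0.815%) had no overlap between the groups. Of the 5060 genes with at least 2 probes, 4 had at least 2 probes without overlap with HS above TN and 14 with HS below TN. Probes of a gene share the same pigs, so the second probe adds no pigs to such a count. The former were CPNE1, IVD, SLC26A6 and SRSF5. The latter, also named after their values were seen, included the chaperones HSPA8 and HSPH1, the co-chaperones BAG3 and AHSA1, the haem oxygenase HMOX1, cytochrome c (CYCS), COQ10B, ATG5, IMP3, PSMG1, RPL7L1, SMAP2 and TLR2.

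Several chaperones had lower means in HS pigs of the cross. HSPH1, the HSP110 protein that resets HSP70 (chromosome 11 of Sscrofa11.1 from 7733874 to 7759528), ranged from 12.45 to 12.95 (median 12.68) in TN pigs and from 11.64 to 12.26 (median 11.88) in HS pigs. Every HS pig lay below every TN pig. Its log2 difference was -0.80 (standard error 0.12), a 1.74-fold lower intensity, with an unadjusted p of 2.1e-05 and an adjusted p of 0.176. All 4 probes, which read 4 separate stretches, were lower, with differences of -0.37 to -0.80, and each was at an unadjusted p under 0.05. HSPA8, the constitutive HSP70 of the cytosol (chromosome 9 from 49982278 to 49986760), ranged from 15.81 to 16.41 (median 16.06) in TN pigs and from 14.96 to 15.67 (median 15.39) in HS pigs, again without overlap. Its log2 difference was -0.74 (standard error 0.13, adjusted p = 0.258), and its second probe, at another stretch, gave -0.81. One probe of each gene is printed as an example of the 60 bases read. The probe shown for HSPH1 differed by -0.55 and that for HSPA8 by -0.81.
HSPH1 probe 3: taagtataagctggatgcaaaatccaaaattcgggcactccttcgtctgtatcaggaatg
HSPA8 probe 2: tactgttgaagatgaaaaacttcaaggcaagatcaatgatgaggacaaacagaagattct

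Of the 13 measured genes of the HSP70 and HSP110 list, 11 were lower, 3 of them at an unadjusted p under 0.05 and none higher at that threshold. Over all 10060 genes, with the brightest probe of each, 6.74% were lower and 4.95% higher at an unadjusted p under 0.05. The HS and TN arrays were spread unevenly over the slides, and with the slide as a block in a fit of all 36 arrays 848 of these 1176 genes (72.1%) were at that threshold too. Of the 93 genes at it in any of the lists, 74 were so too (79.6%), among them all 3 of this list. Here and below, a p with the slide as a block is from this fit, which also takes its spread from all 36 arrays. A change of p can thus come from the slide or from the spread, and which was not tested. The log2 difference itself stayed close for IGFBP2 (0.39 in the cross alone and 0.36 in this fit) but not for EGLN3 (-0.19 and -0.05). The list's median log2 difference was -0.14, against -0.004 over all genes. The third was HYOU1, an HSP110-like protein of the endoplasmic reticulum, with a log2 difference of -0.15 (adjusted p = 0.374). HSPA5, the HSP70 of the endoplasmic reticulum, differed by -0.09 and HSPA9, that of mitochondria, by 0.00. The 13 genes do not include HSPA1A or HSPA1B, and HSPA6 and HSPA1L differed by -0.14 each (adjusted p = 0.687 and 0.686). Among the co-chaperones 19 of 28 were lower, 8 of them at an unadjusted p under 0.05, and the median was -0.07. BAG3, which links HSP70 to autophagy, ranged from 12.90 to 13.44 in TN pigs and from 12.69 to 12.92 in HS pigs, a log2 difference of -0.39 (standard error 0.08, adjusted p = 0.264). Of its 6 probes 5 differed by -0.37 to -0.41, and the dimmest by -0.01. DNAJA2, a J-domain partner of HSPA8, ranged from 10.56 to 10.85 in TN pigs and from 10.40 to 10.53 in HS pigs without overlap, and differed by -0.24 (standard error 0.06, adjusted p = 0.272). DNAJA4 (-0.46), AHSA1 (-0.26), which activates HSP90, DNAJC3 (-0.25) and DNAJB11 (-0.26), a pair of co-chaperones of the endoplasmic reticulum, HSBP1 (-0.27), which binds HSF1, and DNAJB6 (-0.16, and an unadjusted p of 0.0634 with the slide as a block) were the others at an unadjusted p under 0.05, with adjusted p of 0.274 to 0.367. DNAJB1, an HSF1 target, differed by -0.05 and HSF1 itself by -0.12, neither at that threshold.

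In the list of HSP90, chaperonins and small HSP, 13 of 19 genes were lower, 5 of them at an unadjusted p under 0.05 (26.3% of the list, against 11.7% of all genes). These 5 were CCT2, CCT3, CCT4, CCT8 and TCP1, subunits of the chaperonin that folds actin and tubulin, with differences of -0.16 to -0.20, whereas its other measured subunits CCT5 (-0.20) and CCT7 (-0.07) were not at that threshold. CCT3 and CCT8 differed by -0.17 and -0.19 (adjusted p = 0.32 and 0.299), CCT3 without overlap, and the second probe of CCT8 gave -0.04. The cytosolic HSP90 genes HSP90AA1 and HSP90AB1 differed by 0.00 and -0.02. The unfolded protein response, the matching system of the endoplasmic reticulum, had 1 of 19 genes at an unadjusted p under 0.05, DNAJC3, and a median of -0.02. Its sensor kinase EIF2AK3 differed by 0.23 (adjusted p = 0.476), with 2 probes of that sign and neither at an unadjusted p under 0.05.

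**Figure D3:**
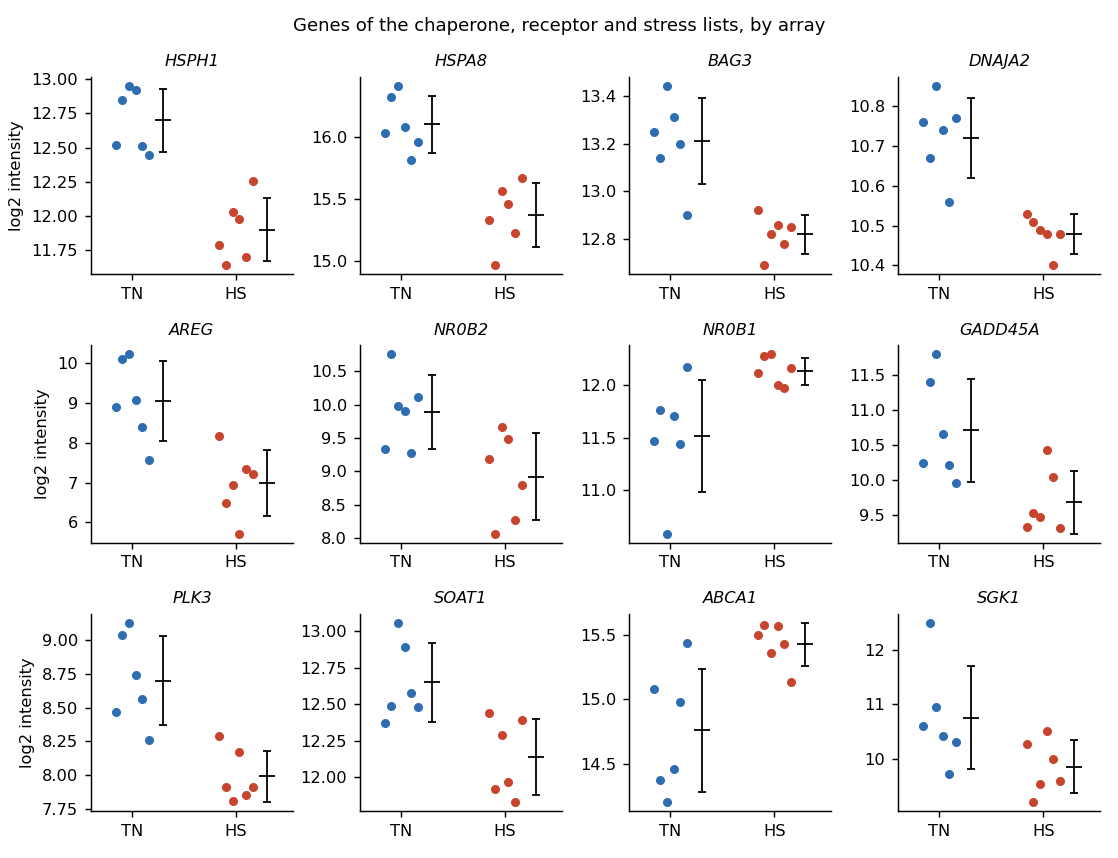
Deposited log2 intensity (y axis) of 12 genes of the chaperone, receptor, stress and cholesterol lists in each of the 6 TN (blue) and 6 HS (red) pigs of the cross, with the mean and SD of each group in black. HSPH1, HSPA8 and DNAJA2 do not overlap between the groups, and the other 9 do.

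Among the factors that set adrenal identity, a pair of related repressors differed in opposite directions. NR0B1 (DAX1), a repressor of steroid genes on the X chromosome, ranged from 10.59 to 12.17 (median 11.59) in TN pigs and from 11.97 to 12.29 (median 12.13) in HS pigs, with a log2 difference of 0.61 (standard error 0.20, adjusted p = 0.298). A second probe gave 0.67 and the dimmest -0.11. NR0B2 (SHP), a repressor of the same family (chromosome 6 from 84225670 to 84228156), ranged from 9.27 to 10.75 (median 9.94) in TN pigs and from 8.07 to 9.67 (median 8.99) in HS pigs, with a log2 difference of -0.98 (standard error 0.31, adjusted p = 0.289). All 6 HS pigs lay below the TN mean, but the groups overlapped. Its 2 probes come from separate stretches and differed by -0.98 and -0.81.
NR0B2 probe 1: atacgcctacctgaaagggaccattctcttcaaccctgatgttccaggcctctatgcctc
NR0B2 probe 2: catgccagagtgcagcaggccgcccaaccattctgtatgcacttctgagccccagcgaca
NR5A1, steroidogenic factor 1, the activator on which steroid genes depend, differed by -0.29 (standard error 0.12, adjusted p = 0.371), with 4 of 4 probes lower, and TN replicate 3 at 13.06 stood above the 12.37 to 12.46 of the other TN pigs. NR4A2, an orphan receptor induced by ACTH, differed by 0.55 (standard error 0.18, adjusted p = 0.296), with both probes, of 1 stretch, higher. The whole list of 15 factors had 2 genes higher and 2 lower at an unadjusted p under 0.05 (26.7%, against 11.7% of all genes) and a median of 0.03. It held SF1, the symbol of splicing factor 1 and not of NR5A1, at -0.09, and without it the median of the other 14 was 0.05.

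In steroid synthesis, of 13 genes none was higher and 2 were lower at an unadjusted p under 0.05, and the median was 0.02. STAR ranged from 17.69 to 18.06 in TN pigs and from 17.26 to 17.93 in HS pigs, a log2 difference of -0.30 (standard error 0.11, adjusted p = 0.329), with all 10 probes lower and 7 of them at an unadjusted p under 0.05. The 10 include probe 10, which reads the strand opposite to probe 9. POR, which passes electrons to the cytochromes P450, differed by -0.17 (adjusted p = 0.402) by its brightest probe and by -0.02 to -0.05 by the other 3, CYP17A1 by -0.08, CYP21A2 by -0.08 and CYP11A1 by -0.02. The largest values of the list were higher in HS pigs with a wide spread, 1.32 (standard error 0.88, adjusted p = 0.574) for SULT2A1, which sulfates steroids, and 0.45 (standard error 0.38, adjusted p = 0.661) for CYB5A, a partner of CYP17A1. In the list of the ACTH receptor and cAMP signalling, 1 of 20 genes was higher and 2 were lower at an unadjusted p under 0.05 (15%, against 11.7% of all genes), and the median was -0.10. PDE4B, which breaks down cAMP, differed by 0.21 (adjusted p = 0.416). CREM, a cAMP-responsive factor, differed by -0.47 (standard error 0.18, adjusted p = 0.358) and PRKAR2B, a regulatory subunit of protein kinase A, by -0.31 (adjusted p = 0.39). With the slide as a block POR, CREM and PRKAR2B were not at that threshold (unadjusted p = 0.17, 0.0941 and 0.0616).

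Genes that supply cholesterol, the substrate of these hormones, were mostly lower, 19 of 26, with a median of -0.12. At an unadjusted p under 0.05, 4 were lower and 3 higher (26.9% of the list, against 11.7% of all genes). Of the higher ones SREBF1 (0.35) was not with the slide as a block (unadjusted p = 0.0611). SOAT1, which esterifies cholesterol for storage, ranged from 12.37 to 13.06 (median 12.54) in TN pigs and from 11.83 to 12.44 (median 12.13) in HS pigs. Its log2 difference was -0.51 (standard error 0.14, adjusted p = 0.28), and all 3 probes, from 3 stretches, were at an unadjusted p under 0.05. ABCA1, the pump that exports cholesterol from the cell, differed the other way, with 14.20 to 15.44 in TN pigs, 15.14 to 15.58 in HS pigs and a log2 difference of 0.67 (standard error 0.19, adjusted p = 0.28) from its single probe.

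The EGF receptor ligand AREG, a growth factor released from the cell surface (chromosome 8 from 70417935 to 70428106), was much lower in HS pigs. It ranged from 7.57 to 10.23 (median 8.99) in TN pigs and from 5.71 to 8.17 (median 7.09) in HS pigs, a log2 difference of -2.07 (standard error 0.47, adjusted p = 0.264) or a 4.2-fold lower intensity. All 6 HS pigs lay below the TN mean, and only TN replicate 6, at 7.57, lay among the HS pigs. Its 4 probes gave -1.63 to -2.07, but come from 2 stretches, as 3 of them overlap. Of the 14 genes of the EGF receptor list 3 were lower and none higher at an unadjusted p under 0.05 (21.4%, against 11.7% of all genes), and the median was 0.02. SPRY2, an inhibitor that EGF signalling induces, differed by -0.37 (standard error 0.12, adjusted p = 0.288), and by -0.19 by its second probe. EHF, an epithelial ETS factor with 1 probe, ranged from 8.27 to 11.13 in TN pigs and from 7.78 to 9.67 in HS pigs, a log2 difference of -1.23 (standard error 0.50, adjusted p = 0.367).

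Stress-responsive genes of the p53 list had differences of both signs, 4 higher and 3 lower of 21 at an unadjusted p under 0.05 (33.3%, against 11.7% of all genes). PLK3, a stress kinase, ranged from 8.26 to 9.13 (median 8.65) in TN pigs and from 7.81 to 8.29 (median 7.91) in HS pigs, a log2 difference of -0.71 (standard error 0.15, adjusted p = 0.264). GADD45A, a growth arrest protein, differed by -1.03 (standard error 0.31, adjusted p = 0.28), with 9.95 to 11.80 in TN pigs and 9.31 to 10.43 in HS pigs. Its 3 probes overlap in sequence and count as 1 stretch. Its paralogue GADD45B differed in the other direction, by 0.45 (standard error 0.11, adjusted p = 0.272), with 2 probes from separate stretches. SESN1, a sestrin that restrains growth signalling, differed by 0.33 (standard error 0.10, adjusted p = 0.28). Immediate-early genes, switched on within minutes of a stimulus, were lower for 17 of 25, 4 of them at an unadjusted p under 0.05 (16% of the list, near the 11.7% of all genes), with a median of -0.09. The list held CTGF (-0.21) and CCN2 (-0.16), which are symbols of one gene, and counted once it gives 16 of 24 and a median of -0.08. FOSL1 differed by -0.60 (adjusted p = 0.28, well above background on 5 TN and 4 HS arrays) and KLF10 by -0.43 (adjusted p = 0.299, and an unadjusted p of 0.0696 with the slide as a block). The other 4 probes of KLF10 gave -0.08 to -0.43.

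Among glucocorticoid targets SGK1, a kinase of salt transport, differed by -0.90 (standard error 0.39, adjusted p = 0.395). TN replicate 2 at 12.51 stood above the other TN pigs, which lay at or below 10.96. KLF15, another target, differed by 0.36 (standard error 0.12, adjusted p = 0.297), and the list of 16 had a median of -0.05. The clock list had 1 of 15 genes at an unadjusted p under 0.05 (6.67%, against 11.7% of all genes). It was BHLHE40, a transcriptional repressor (-0.44, adjusted p = 0.423, and -0.19 by its second probe), and BHLHE41 differed by 0.23 (adjusted p = 0.565).

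Genes of the cell cycle and replication made up one of the 2 lists with the largest share at an unadjusted p under 0.05. Of 28 genes 23 were lower, 11 of them at that threshold and none higher (39.3% of the list, against 11.7% of all genes), and the median was -0.19. CDK1, the kinase of mitotic entry, ranged from 8.39 to 9.40 (median 8.85) in TN pigs and from 7.95 to 8.76 (median 8.42) in HS pigs, a log2 difference of -0.48 (standard error 0.16, adjusted p = 0.311), with both probes lower. CCNB2 (-0.31, adjusted p = 0.312), UBE2C (-0.47), RRM2 (-0.43), TPX2 (-0.39), BUB1 (-0.39), CCNB1 (-0.34), MKI67 (-0.24) and PCNA (-0.19), which serve mitosis or DNA synthesis, had the same sign by their brightest probes. With the slide as a block 9 of the 11 were at that threshold, and PCNA and CCNE1 were not (unadjusted p = 0.0919 and 0.313). The second probe of CCNB2 gave 0.05 (adjusted p = 0.823). The adjusted p of the 11 genes lay between 0.311 and 0.39.

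In the other list, of skeletal muscle markers, 16 of 17 genes were higher and 7 of them at an unadjusted p under 0.05 (41.2% of the list, against 11.7% of all genes), with a median of 0.37. Without HS replicate 3, 15 were higher, 6 at that threshold, and the median was 0.11. TTN, the giant spring protein of the sarcomere, ranged from 8.11 to 8.82 in TN pigs and from 8.89 to 9.68 in HS pigs without overlap, with a log2 difference of 0.67 (standard error 0.16, adjusted p = 0.272), and 0.59 without HS replicate 3. ANKRD2, a stretch-responsive muscle protein, differed by 0.71 (standard error 0.23, adjusted p = 0.299) and by 0.68 without that array. PYGM, muscle glycogen phosphorylase, differed by 0.26 (adjusted p = 0.29) and by 0.22 without it, and its other probes gave 0.17 and 0.00. ACTA1 differed by 0.21, and by 0.16 without HS replicate 3 (unadjusted p = 0.0647). With all arrays and the slide as a block ACTA1 was not at that threshold (unadjusted p = 0.18). Values with and without HS replicate 3 follow for 3 more genes. The difference of MYH7 was 1.26 with HS replicate 3 and 0.43 without it, that of TNNT1 0.84 and -0.03, and that of MYLPF 0.54 and 0.02.

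Markers of other cell types were read as lists for the make-up of the samples. The cortex markers were lower for 8 of 12 genes (median -0.08), 3 of them at an unadjusted p under 0.05 (SOAT1, STAR and NR5A1, given above). The log2 of their summed intensities ranged from 20.80 to 20.88 in TN pigs and from 20.72 to 20.94 in HS pigs. Of the chromaffin cell markers 16 of 22 were lower, 3 of them at an unadjusted p under 0.05 (13.6%, near the 11.7% of all genes), with a median of -0.08. CYB561, the cytochrome of catecholamine granules, ranged from 14.85 to 15.07 in TN pigs and from 14.47 to 14.83 in HS pigs without overlap, a log2 difference of -0.28 (standard error 0.08, adjusted p = 0.277), and its second probe gave -0.15. SCG2, a granin, differed by -0.43 (adjusted p = 0.346) and PNMT, which makes adrenaline, by -0.32. Immune cell markers were lower for 21 of 26, 6 of them at an unadjusted p under 0.05 (23.1% of the list, against 11.7% of all genes), with a median of -0.11. They include C1QA (-0.52, adjusted p = 0.303), C1QB (-0.39, adjusted p = 0.324, but 0.00 by its second probe) and C1QC (-0.45), the complement genes of macrophages, and S100A8 (-0.63), FCGR3A (-0.34) and CD163 (-0.41), also of myeloid cells. Capsule and stroma markers were higher for 15 of 18 genes, with a median of 0.18, and DCN (0.33, adjusted p = 0.347) and FN1 (0.37, adjusted p = 0.415), both of the extracellular matrix, were at an unadjusted p under 0.05 (11.1%, against 11.7% of all genes). With the slide as a block FN1 differed by 0.27 (unadjusted p = 0.191) and was not, nor were FCGR3A and CD163 above (unadjusted p = 0.0645 and 0.17). The part of cell make-up in the results above was not tested. No gene of the adipocyte (15), red blood cell (9) and endothelium (14) lists was at an unadjusted p under 0.05. CIDEA (0.20), LEP (0.11), EPB42 (-0.15), HBB (-0.67, with 7.61 to 11.21 in HS pigs), EGFL7 (0.20) and TIE1 (0.12) had the lowest p in them. The medians of these lists were 0.04, -0.09 and -0.04, and 8, 2 and 6 of their genes were higher. The kidney list had 3 measured genes, among them the water channels AQP1 (0.37, adjusted p = 0.388, 0.27 with the slide as a block and 0.15 by its second probe) and AQP2 (-0.22, adjusted p = 0.709). In the zona glomerulosa list CACNA1D, a calcium channel, differed by 0.45 and DAB2, an endocytic adaptor, by 0.31 (adjusted p = 0.322 and 0.349).

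In the remaining lists fewer or about as many genes were at an unadjusted p under 0.05 as among all genes (11.7%). Of 68 subunits of oxidative phosphorylation 3 were at an unadjusted p under 0.05, all lower, NDUFA8 (-0.13), NDUFC1 (-0.15) and ATP5J (-0.26), and none of these was with the slide as a block (unadjusted p = 0.117, 0.144 and 0.109). Of 59 cytosolic ribosomal genes none was (0 at an FDR of 0.05 by limma), with RPS23 at -0.22 and RPS19 at 0.11. Antioxidant genes had 1 higher and 3 lower of 34, including HMOX1 (-0.40, 5 of 5 probes lower and at an unadjusted p under 0.05, adjusted p = 0.28) and SRXN1 (-0.42, adjusted p = 0.29). In hypoxia and glycolysis 2 of 23 were higher and 1 lower, EGLN3 (-0.19), which was not with the slide as a block (unadjusted p = 0.68). EGLN1, the oxygen-sensing hydroxylase, was at 0.23 without overlap by its brightest probe (adjusted p = 0.28), and its other 4 gave 0.01, 0.23, 0.08 and 0.02. The brightest probe of CA9 gave 0.20 and the other 3 gave 0.06 to 0.24, none of these at that threshold. In the IGF axis the binding proteins IGFBP2 (0.39, adjusted p = 0.28) and IGFBP6 (0.42, adjusted p = 0.336) were higher with all 4 probes each, IGFBP2 with an unadjusted p of 0.0594 with the slide as a block. Of 29 interferon-stimulated genes 1 was at an unadjusted p under 0.05, CXCL10 (-0.57, adjusted p = 0.414), which was not with the slide as a block (unadjusted p = 0.139), and GBP1 differed by -0.29, whereas 19 of the 29 were higher and the list's median was 0.05.

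**Figure D4:**
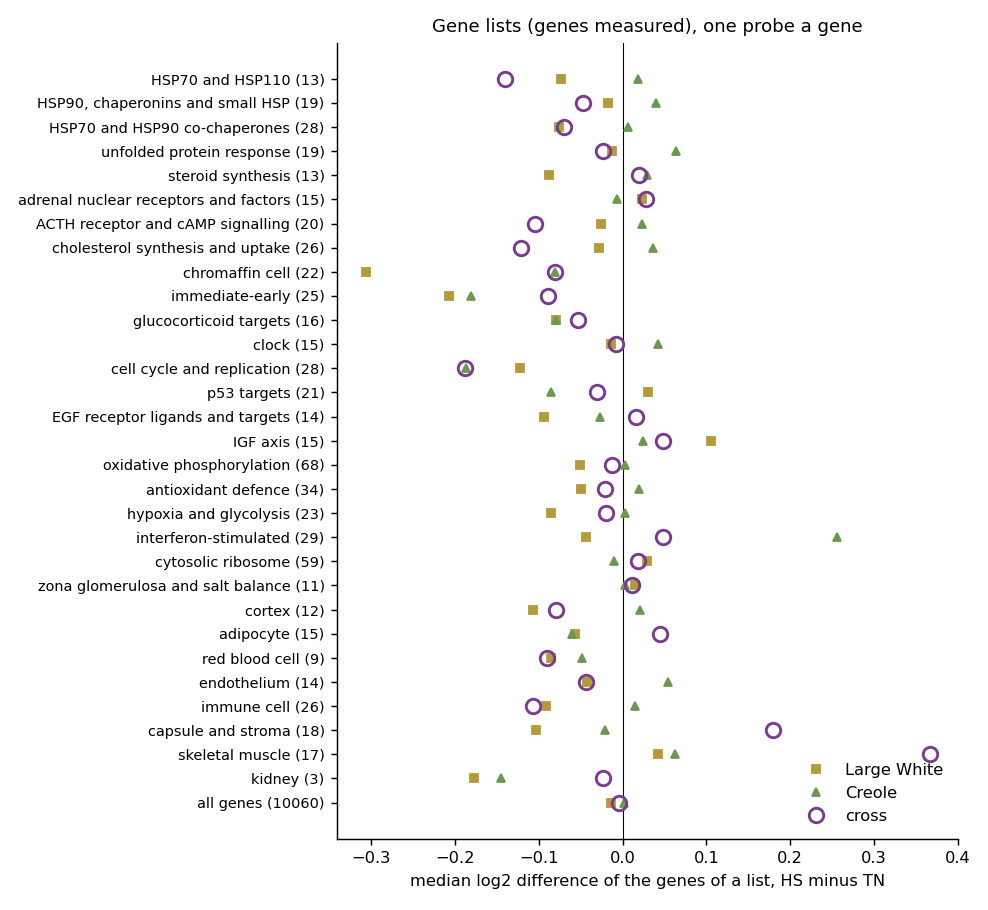
Median log2 difference, HS minus TN (x axis), of the genes of each list with the number of genes measured, one probe a gene, in the cross (open circles), Large White (squares) and Creole pigs (triangles). The skeletal muscle (0.37, and 0.11 without HS replicate 3) and the capsule and stroma (0.18) medians of the cross lie highest and the cell cycle median (-0.19) lowest, beside a median near 0 over all genes.

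Beside AREG, GADD45A and NR0B2, several of the largest differences among genes whose probes agreed belonged to genes of no list. PDLIM3, an actin-binding protein of muscle (chromosome 15 from 46516178 to 46546658), was higher with 10 of 10 probes at an unadjusted p under 0.05, from 8 stretches. Its lowest and median values were 8.67 and 9.22 in TN pigs, and it ranged from 9.46 to 12.82 (median 10.95) in HS pigs, with a log2 difference of 1.76 (standard error 0.61, adjusted p = 0.315). The HS pigs formed 2 sets: replicates 1, 2 and 5 lay at 12.11, 12.63 and 12.82, and replicates 3, 4 and 6 at 9.46 to 9.80, within the range of the TN pigs. HS replicate 3, the array with high muscle markers, was thus not among the high values, and the difference was 2.01 without it.
PDLIM3 probe 3: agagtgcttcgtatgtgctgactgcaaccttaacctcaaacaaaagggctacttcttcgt
PON1, the paraoxonase of plasma lipoproteins (chromosome 9 from 74943646 to 74974720), ranged from 6.03 to 7.89 in TN pigs and from 7.66 to 9.46 in HS pigs, a log2 difference of 1.64 (standard error 0.40, adjusted p = 0.272). HS replicates 3 and 6, at 7.87 and 7.66, lay within the TN range. Its probes 2 and 3 gave 1.34 and 0.52 (adjusted p = 0.28 and 0.779). ANPEP and MME, a pair of membrane peptidases, differed by 1.23 and 0.85 (standard errors 0.36 and 0.27, adjusted p = 0.28 and 0.288). All 4 probes of ANPEP and all 3 of MME were at an unadjusted p under 0.05. The TN pigs were spread in both, with TN replicates 2 and 3 lowest in ANPEP, TN replicates 3 and 4 lowest in MME, and TN replicates 5 and 6 within the range of the HS pigs in ANPEP. KPNA7 (0.84, adjusted p = 0.272), an importin, C22orf23 (0.79, adjusted p = 0.371), LRRC1 (0.67, adjusted p = 0.347) and FAM13C (0.67, adjusted p = 0.264) followed. FAM13C ranged from 8.93 to 9.43 in TN pigs and from 9.56 to 10.51 in HS pigs without overlap. In C22orf23 the mean of the HS pigs rested on replicates 2 and 6, at 7.45 and 8.45 against 6.17 to 6.75 in the others.

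On the lower side MYOT, a protein of the muscle Z-disc, had the value -2.72, with a standard error of 1.6 and 2 of its 22 probes at an unadjusted p under 0.05 (adjusted p of the brightest 0.53). Its brightest probe was well above background on only 5 TN and 3 HS arrays, so that the value is no measured size. Its values were of 2 kinds in both groups. In 1 TN pig and 3 HS pigs it was at 5.12 to 5.39, and in the other 8 pigs far above, up to 13.58. HS replicate 3 was one of these 8, and without it the difference was -3.33 (adjusted p = 0.501). RDH12, a retinol dehydrogenase, ranged from 11.97 to 14.50 in TN pigs and from 11.29 to 13.62 in HS pigs (-1.27, standard error 0.49, adjusted p = 0.355). GUSB, the lysosomal beta-glucuronidase often used as a reference gene, ranged from 11.22 to 13.55 in TN pigs and from 11.13 to 11.85 in HS pigs (-1.0, standard error 0.36, adjusted p = 0.327). The SD was 0.97 in TN pigs and 0.24 in HS pigs, and TN replicates 2, 3 and 4 were the high ones. NPY1R, a receptor of neuropeptide Y, differed by -0.89 (standard error 0.26, adjusted p = 0.28), TNFAIP6, an inflammation-induced matrix protein, by -0.88 (adjusted p = 0.388), and PHYH, a peroxisomal hydroxylase, by -0.87 (adjusted p = 0.433). In PHYH HS replicates 1, 2 and 6 were at 12.60 to 13.10 and the other 3 at 14.01 to 14.94.

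The gene of lowest p was EMX2, a homeobox factor of the urogenital tract (chromosome 14 from 127649675 to 127656972). It ranged from 5.35 to 5.62 in TN pigs and from 5.79 to 5.93 in HS pigs, a log2 difference of 0.39 (standard error 0.06, unadjusted p = 1.34e-05, adjusted p = 0.176). The groups did not overlap, but the probe is dim. It was well above background on 6 HS arrays and 2 TN arrays, and its second probe, at 0.18, was so on 2 arrays in all.
EMX2 probe 1: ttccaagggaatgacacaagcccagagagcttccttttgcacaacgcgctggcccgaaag

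**Figure D5:**
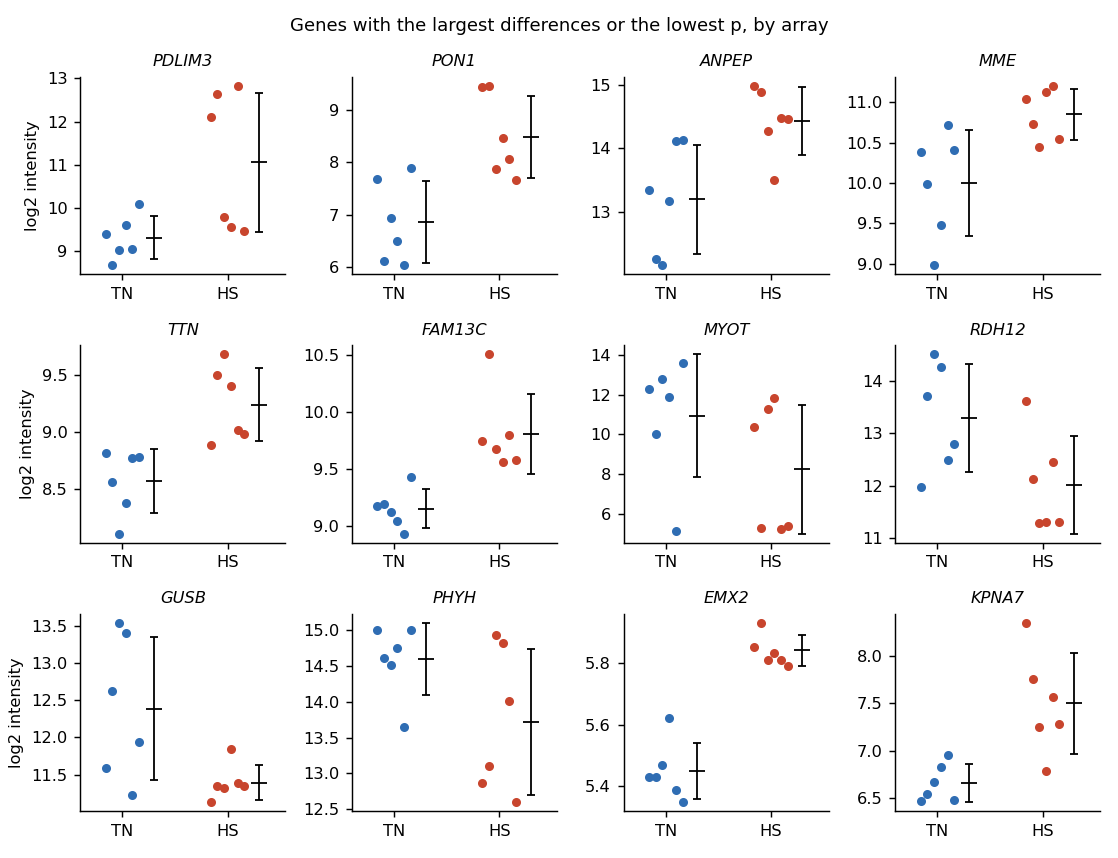
Deposited log2 intensity (y axis) of 12 genes with a large difference or a low p in each of the 6 TN (blue) and 6 HS (red) pigs of the cross, with the mean and SD of each group in black. PDLIM3, MYOT and PHYH fall into separate sets of pigs within a group, whereas TTN, FAM13C and EMX2 do not overlap between the groups.

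The genes with the most probes at an unadjusted p under 0.05 were chosen for that number, so that the likeness of their probes is a description. All 11 probes of ESD, an esterase, gave -0.19 to -0.27. Of 12 probes of COL14A1, a fibril-associated collagen, 11 were at that threshold, and all gave 0.28 to 0.48. FHL1, a LIM protein of muscle, had 16 probes of the same sign, 10 at that threshold, with 0.09 to 0.25, and its brightest probe gave 0.25 without HS replicate 3 too. The adjusted p of the brightest probes was 0.311, 0.416 and 0.28, and with the slide as a block that of ESD had an unadjusted p of 0.0562.

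Besides CYR61, RREB1, ZNF839 and MAP2K1 were among the genes whose probes disagreed most. Among the probes at an unadjusted p under 0.05, MAP2K1, a kinase of the MAPK cascade, had 3 at -0.17 to -0.32 and 1 at 0.18, RREB1 had -0.18 and -0.25 against 0.34, and ZNF839 had 0.19 against -0.40. With the slide as a block the RREB1 probe at -0.18 was not at that threshold (unadjusted p = 0.109). In all, 13 genes had probes at an unadjusted p under 0.05 in both directions.

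Whether the response of the cross departs from that of its parent breeds was tested with all 36 arrays, as the difference between the response of the cross and the mean of those of Large White and Creole pigs. With limma 0 of 45348 probes (0%) passed an FDR of 0.05, the lowest adjusted p was 0.0875, and 2546 probes (5.61%) were at an unadjusted p under 0.05. The named genes were selected on the cross, which favours large values there. Among the 383 genes with agreeing probes, the sign in the cross was found in Large White pigs for 320 (83.6%, against 58.2% of all genes), in Creole pigs for 295 (77%, against 57.4%) and in both for 254 (66.3%, against 36%). The median size of these genes in the direction of the cross was 0.26 in the cross, 0.10 in Large White and 0.08 in Creole pigs. HSPH1 differed by -0.80 in the cross, -0.36 in Large White and -0.42 in Creole pigs, and AREG by -2.07, -0.94 and -1.69. HSPA8 (-0.74, -0.47 and -0.51), GADD45A (-1.03, -0.38 and -0.47) and NR0B1 (0.61, 0.46 and 0.44) had the same sign in all breeds too. Several other genes had smaller values in the parents, in part of the other sign. PON1 was at 1.64, -0.09 and -0.62 by its brightest probe and at 0.52, 0.28 and -0.21 by probe 3, ANPEP at 1.23, -0.20 and 0.00, DCN at 0.33, -0.27 and 0.03, and GUSB at -1.0, -0.21 and 0.29. The unadjusted p of the difference was 0.00408, 0.00324, 0.00495 and 0.016 in the brightest probes of these genes, and the adjusted p was 0.883 in each. For HSPH1 and AREG the unadjusted p was 0.0642 and 0.165.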

How the data were processed

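The authors labelled adrenal RNA with Cy3, extracted spot intensities with Agilent Feature Extraction 10.10.1.1, quantile normalized them and deposited log2 values of 45348 probes. Those log2 values were the main data. The deposited scanner files (intensity per spot) served for alternatives, flags and probe sequences. Probes were named from the deposited gene names (18766), RefSeq accessions (2555) and older symbols (160), and 23867 had no name. Coordinates are RefSeq's on Sscrofa11.1. The table holds 93 missing values, 41 of them in the cross, and 0 columns of other samples.

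HS was compared with TN over the 12 arrays of the cross with limma 3.58.1 in R 4.3.3 (lmFit, eBayes, Benjamini-Hochberg over all probes, threshold 0.05). The difference from the parents used all 36 arrays. A gene's value is that of its brightest probe over the 12 arrays. Gene lists, 20 of pathways and 10 of cell markers, are described by counts and medians only. The members and lists were chosen with earlier results of these data known. Named genes are the 10 largest on each side among genes whose probes share a sign with at least 2 at an unadjusted p under 0.05, the 2 of lowest p in each list, the 5 whose probes disagree most, those of lowest p or most such probes, and 10 that the paper or earlier results named, of which STIP1 is not reported. A few genes that this rule or a count takes in are not reported here. The fit was tested on simulated data. Alternatives were scanner values, other scalings and background corrections (normexp, offset 50), filters, slide as a block, slides or pigs left out, array weights and another variance prior. The number of arrays limits the precision. Pen, slaughter day and parents, part of the authors' model, were not used.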

Additional observations from a re-analysis of the deposited data

Results flagged for a closer look

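In the groups of 6 pigs, 178 sets of values (the named genes in TN and HS pigs, and 2 measures of each array) were searched for a single pig far from the others by Dixon's test at 95%, and 11 were found, where chance gives about 1 in 20. TN replicate 3 was the pig in 3 of them: NR5A1 at 13.06 against 12.37 to 12.46 in the other TN pigs, STAR at 18.06 against 17.69 to 17.82, and CREM at 10.52 against 9.31 to 9.60. TN replicate 5 was low in PHYH, at 13.65 against 14.51 to 15.01, and high in KLF15, at 11.26 against 10.72 to 10.89. TN replicate 6 was high in DAB2, at 14.75 against 13.95 to 14.15. HS replicate 2 was high in FAM13C, at 10.51 against 9.56 to 9.80, and HS replicate 6 in FN1, at 12.59 against 12.01 to 12.21. HS replicate 4 was high in GUSB, at 11.85 against 11.13 to 11.38, and in RREB1, at 10.98 against 10.68 to 10.74. The same array had the highest median raw intensity of the HS arrays, 186.5 against 146 to 157 before normalization.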

How the results depend on the processing

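No probe passed an FDR of 0.05 in any alternative fit other than those without slide 4 (1 probe), slide 5 (5) and TN replicate 5 (1). With single pigs left out the count was between 0 and 1, and the fit without slide 1 is also the one without HS replicate 1. With all 12 arrays 0 probes passed an FDR of 0.1 (160 with the spread of all 36 arrays) and 6 an FDR of 0.2. Probes at an unadjusted p under 0.05 numbered 5286, and 2572 without slide 4. Each pig left out in turn gave 3715 to 6359 such probes, 816 to 1392 genes (1176 with all) and 247 to 460 genes with agreeing probes (383 with all). Without slide 4 there were 511 and 139 such genes. For the difference between the cross and its parents, leaving out slide 4 gave 1 probe past the FDR and 1611 at an unadjusted p under 0.05. The cause of these shifts was not tested. Leaving out slide 2 or slide 5 also leaves 9 of 12 arrays and gave 4221 and 5815 probes at an unadjusted p under 0.05. Of the alternative values of the 87 named genes none passed the FDR and 4 changed sign: CYR61 at 0.72 with its probe of lowest p, RREB1 at 0.03 as the mean over its probes, and ZNF839 at -0.10 as the mean and -0.40 with its probe of lowest p. Of 30 list medians 6 changed sign under some alternative, in all cases with sizes of at most 0.113 (steroid synthesis, clock, p53 targets, cytosolic ribosome, adipocyte and kidney). None moved by more than the SD of the list's median between pigs, taken from the group with the larger SD. For skeletal muscle the SD of the HS pigs includes HS replicate 3. It is therefore no check of the fall of that median from 0.37 to 0.11 without this array. The share of pairs with the same sign was 56.1% to 75.3% in the alternatives, lowest for probes on opposite strands. The alternatives on opposite strands, on other scalings of the lists, without SF1 or CCN2 in a list and without HS replicate 3 were chosen after seeing the data. No paired analysis was possible because the replicate numbers only follow the order of the arrays.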
